A study of Mus musculus with 18 samples.

Results

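Mouse carries its replication-dependent histone genes in clusters, and 70 genes whose older symbols start with Hist1h, Hist2h, Hist3h or Hist4h were followed here through poly(A) RNA and through macroH2A2 and H2A.Z region lists. They were chosen by symbol, with earlier results of these data known. The RNA count files held 48440 genes, and 68 of the 70 members had a row there (Hist1h2bm and Hist1h2bh were not analysed in RNA). By the histone class in the symbol there were 6 linker histone H1 genes, 20 H2A genes, 19 H2B genes, 12 H3 genes and 13 H4 genes. Among them Hist1h2aj, Hist1h2al and Hist3h2bb-ps are annotated as pseudogenes. By place there were 56 Hist1 genes, 10 Hist2 genes, 3 Hist3 genes and 1 Hist4 gene. All 70 were matched to a RefSeq position on GRCm38.p6.

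The cells were SV40-immortalized dermal fibroblasts (iDF) taken from newborn male 129/S6 mice. They are labelled as double knockouts for macroH2A1 and macroH2A2 that carry a macroH2A2-GFP transgene under doxycycline control, so every group below except the H2A.Z one shares the double knockout, the transgene and SV40 immortalization. Poly(A) RNA was sequenced after 0h, 6h and 24h of 0.5 ug/ml doxycycline, in 3 replicates each. MacroH2A2-GFP was mapped by native GFP-Trap ChIP-seq after 0h, 6h, 24h and 5d of doxycycline, with a single library per time. Further single libraries were made at 24h with 0.5 uM flavopiridol, an inhibitor of the elongation kinase CDK9, over its final 18 hours, and after 6h or 24h with 5 uM GSK126, an inhibitor of the H3K27 methyltransferase EZH2, for 10 days. H2A.Z, another H2A variant, was profiled in 1 library of wild-type primary dermal fibroblasts of newborn female 129/S6 mice, which differ from the iDFs in genotype, sex and immortalization. SV40 large T antigen binds Rb family proteins and is known to push cells into S phase, which limits these cells as a model of normal histone gene control.

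Replication-dependent histone genes are transcribed in S phase from histone locus bodies, where NPAT binds, to supply histones for newly copied DNA. Their mRNAs are mostly intronless and end not in a poly(A) tail but in a conserved stem-loop, which SLBP binds and which the U7 snRNP, with its Lsm10 and Lsm11 subunits, helps to cut. MacroH2A proteins are H2A variants with a large extra macro domain, usually found on silent or weakly transcribed chromatin.

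The promoters of this family carry short shared motifs that differ by histone class. A promoter window from 250 bases before to 50 bases after the start was found for 62 of the 70 genes in RefSeq GRCm38.p6. Both strands were searched for TATAAA (the TATA box), CCAAT (the binding sequence of NF-Y), ATTTGCAT (the octamer bound by Oct1 in H2B promoters), AAACACA (the H1 box) and GGTCCG (the core of an H4 promoter element bound by HiNF-P). None of these motifs contains another. The 150 bases before the start are shown for both genes that passed a test in RNA (Hist1h2bb and Hist3h2a), for the H1 genes Hist1h1c and Hist1h1e, and for the H4 and H3 genes with the highest mean level, Hist1h4i and Hist1h3c. Capitals mark a match on either strand.
Hist1h2bb, chr13:23746584-23746733, plus strand: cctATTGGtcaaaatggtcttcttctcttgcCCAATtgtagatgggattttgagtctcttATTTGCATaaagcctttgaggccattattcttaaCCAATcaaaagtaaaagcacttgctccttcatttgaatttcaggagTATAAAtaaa
Hist3h2a, chr11:58954535-58954684, plus strand: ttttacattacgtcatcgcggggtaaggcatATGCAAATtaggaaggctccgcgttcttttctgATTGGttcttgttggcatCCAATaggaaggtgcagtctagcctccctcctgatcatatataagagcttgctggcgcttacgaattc
Hist1h1c, chr13:23738657-23738806, plus strand: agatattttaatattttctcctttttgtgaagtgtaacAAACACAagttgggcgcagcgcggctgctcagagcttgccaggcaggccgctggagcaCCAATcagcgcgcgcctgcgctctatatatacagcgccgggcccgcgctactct
Hist1h1e, chr13:23622559-23622708, minus strand: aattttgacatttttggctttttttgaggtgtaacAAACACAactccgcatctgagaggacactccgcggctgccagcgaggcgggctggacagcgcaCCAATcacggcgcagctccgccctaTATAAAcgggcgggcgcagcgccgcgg
Hist1h4i, chr13:22041363-22041512, minus strand: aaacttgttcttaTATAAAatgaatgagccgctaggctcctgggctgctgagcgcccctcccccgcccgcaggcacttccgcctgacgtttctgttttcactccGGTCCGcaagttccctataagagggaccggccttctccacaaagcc
Hist1h3c, chr13:23745522-23745671, minus strand: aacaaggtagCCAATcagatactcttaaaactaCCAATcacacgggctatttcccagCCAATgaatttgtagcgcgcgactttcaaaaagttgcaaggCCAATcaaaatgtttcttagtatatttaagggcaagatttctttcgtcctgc

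Motif content differed by class. The octamer was found in 7 of 18 H2A windows and 7 of 16 H2B windows, in 0 of the 28 H1, H3 and H4 windows, and in 1.92% of the windows of 26963 other genes. GGTCCG was found in 11 of 12 H4 windows, against 9.42% of the other genes, and AAACACA in 5 of 6 H1 windows, against 8.21% of the other genes. CCAAT was found in all H1, H2A, H2B and H3 windows but in 3 of 12 H4 windows, against 41.0% of the other genes, and TATAAA in 35 of 62 windows, against 15.6%. The genes also share windows: 10 pairs of members start in opposite directions within 164 to 281 bases of each other, and all 10 pair an H2A gene with an H2B gene. The windows of Hist1h2bq and Hist1h2br were the same at 300 of 300 bases. A match describes these letters only and was not tested for function.

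Poly(A) RNA held little histone RNA. The RNA libraries held 29338093 to 37793178 counts over genes, of which 983 to 1518 fell on the 68 counted histone genes, or 29.5 to 45.2 CPM (counts scaled to library size) in each library. The highest count of any member in any library was 165, for Hist1h1c in the first 0h replicate. Counts were 0 in all 9 libraries for 10 members, and a count of 0 allows a level of up to 0.0794 to 0.102 CPM (3 counts per library, counting error only). The libraries were poly(A)-selected, so these counts describe histone RNA kept by that step and not the total histone mRNA. The 12.2 to 13.0% of reads that mapped to more than 1 place were set apart in the files and given to no gene, and members with near-identical copies are therefore uncertain. The summed level of dermal fibroblast markers was 9561 to 10540 CPM, against 6.70 to 9.06 CPM for keratinocyte, 2.71 to 3.98 CPM for macrophage, 0.865 to 1.74 CPM for endothelial and 3.34 to 4.72 CPM for melanocyte or Schwann cell markers.

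The targeted gene followed its label. H2afy2, which encodes macroH2A2, had 10.5, 25.3 and 9.61 CPM (TMM-normalised, as all levels below) at 0h, 823, 833 and 805 CPM at 6h and 1741, 1713 and 1727 CPM at 24h, with no overlap between the times. H2afy, which encodes macroH2A1, had 51.5 to 60.6 CPM over the 9 libraries. Whether those reads lie outside the deleted part was not tested.

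The 6 linker histone genes held 2539 of the 10988 histone counts summed over the 9 libraries. Hist1h1c, which encodes H1.2, had 4.70, 3.48 and 3.24 CPM at 0h, 3.52, 2.13 and 3.65 CPM at 6h, and 3.08, 3.85 and 3.92 CPM at 24h. Hist1h1e, which encodes H1.4, had 2.59, 2.48 and 1.61 CPM at 0h, 2.04, 2.74 and 4.49 CPM at 6h, and 1.95, 3.06 and 3.71 CPM at 24h. Hist1h1d, which encodes H1.3, had 0.941, 1.21 and 0.685 CPM at 0h, 0.859, 0.821 and 1.51 CPM at 6h, and 1.11, 1.19 and 2.02 CPM at 24h. The 3 times overlapped for all 3 genes. Hist1h1e and Hist1h1d were highest in replicate 3 of 6h and replicate 3 of 24h. In edgeR's quasi-likelihood test none of the 5 tested H1 genes passed an adjusted p of 0.05 in any comparison. Hist1h1e had a log2 change of 0.44 ± 0.23 (SE) for 6h over 0h with an adjusted p of 0.142. Hist1h1d had 0.61 ± 0.27 for 24h over 0h with an adjusted p of 0.195.

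Among the core histone genes, 2 stood out by the test. Hist3h2a, an H2A gene of the small Hist3 cluster on chromosome 11, had 2.17, 2.03 and 2.77 CPM at 0h, 2.95, 2.92 and 3.22 CPM at 6h, and 2.19, 2.49 and 2.11 CPM at 24h. All 3 of its 6h libraries lay above all libraries of the other times, while 24h and 0h overlapped. It rose at 6h over 0h by 0.38 ± 0.15 on the log2 scale (adjusted p = 0.0417, edgeR) and fell at 24h relative to 6h by 0.42 ± 0.15 (adjusted p = 0.0267), while 24h over 0h gave -0.043 ± 0.16 (adjusted p = 0.929). Over 16 alternatives the adjusted p ran from 0.0126 to 0.174 for 6h over 0h, with 7 below 0.05, and from 0.0215 to 0.201 for 24h over 6h, with 10 below 0.05. DESeq2 gave an adjusted p of 0.125 and 0.0845 for these comparisons. The 6h over 0h call was lost without 0h replicate 1 or 2, any one 6h replicate or 24h replicate 2, and the 24h over 6h call without replicate 1 or 3 of either time. The RefSeq position of Hist3h2a overlaps another gene, Trim17, and whether reads counted for Hist3h2a come from Trim17 was not tested.
Hist1h2bb, an H2B gene of the Hist1 cluster, had counts of 9, 6 and 4 at 0h, 9, 17 and 14 at 6h, and 14, 8 and 15 at 24h. In CPM these were 0.257, 0.182 and 0.119 at 0h, 0.242, 0.517 and 0.469 at 6h, and 0.379, 0.272 and 0.445 at 24h. One 6h library lay within the 0h range, and all 24h libraries lay above it. It rose at 6h over 0h by 1.09 ± 0.43 on the log2 scale (adjusted p = 0.0436, edgeR), and the adjusted p ran from 0.0163 to 0.182 over 14 alternatives, with 6 below 0.05. The call was lost without 0h replicate 2 or 3, 6h replicate 2 or 3, or 24h replicate 2. At 24h over 0h its log2 change was 0.97 ± 0.43 with an adjusted p of 0.203.

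The other members with high levels did not pass the test in any comparison. Hist1h2af, an H2A gene, had 3.85, 2.94 and 2.77 CPM at 0h, 3.27, 2.77 and 3.55 CPM at 6h, and 3.08, 2.93 and 3.77 CPM at 24h. Hist1h4i, an H4 gene, had 1.97, 2.36 and 2.71 CPM at 0h, 1.91, 2.40 and 2.01 CPM at 6h, and 2.51, 1.84 and 2.14 CPM at 24h. The log2 changes of both lay between -0.16 and 0.054 in the 3 comparisons, and the times overlapped. Hist1h2bc, an H2B gene, had 1.94, 1.76 and 1.13 CPM at 0h, 1.42, 0.821 and 2.28 CPM at 6h, and 1.84, 1.74 and 1.603 CPM at 24h. Hist1h3c, an H3 gene, had 1.48, 0.787 and 1.07 CPM at 0h, 1.40, 0.851 and 1.67 CPM at 6h, and 1.14, 1.57 and 1.40 CPM at 24h. Replicate 3 of 6h was the highest library for both. Hist1h4d, an H4 gene, had 0.998, 1.24 and 1.55 CPM at 0h, 0.832, 0.821 and 1.61 CPM at 6h, and 1.08, 1.06 and 1.87 CPM at 24h. Hist1h2ak, an H2A gene, had 1.11, 1.03 and 0.833 CPM at 0h, 0.859, 0.912 and 1.37 CPM at 6h, and 0.757, 1.26 and 1.01 CPM at 24h. The times overlapped for these 4 genes. Hist1h3e, an H3 gene, had 0.713, 0.818 and 0.655 CPM at 0h, 0.671, 0.730 and 1.31 CPM at 6h, and 0.676, 1.06 and 1.34 CPM at 24h. Hist2h2be, an H2B gene, had 0.627, 0.636 and 0.893 CPM at 0h, 0.644, 1.22 and 0.770 CPM at 6h, and 0.784, 0.715 and 0.683 CPM at 24h. The times overlapped here too. Per length of the RefSeq gene, the highest mean levels were 6.38 CPM per kb for Hist1h2af, 5.47 for Hist1h4i, 4.99 for Hist3h2a and 4.84 for Hist1h1c. Counting without strand gave 943 counts for the H2A genes against 2994 sense counts, and 3 against 971 for Hist1h2af. The other classes had 95.9 to 100.4% of their sense counts. Within them Hist2h3b, an H3 gene, had 0 against 68 and Hist2h2bb, an H2B gene, 0 against 53. These are sums over the 9 libraries, and the cause was not tested.

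**Figure D1:**
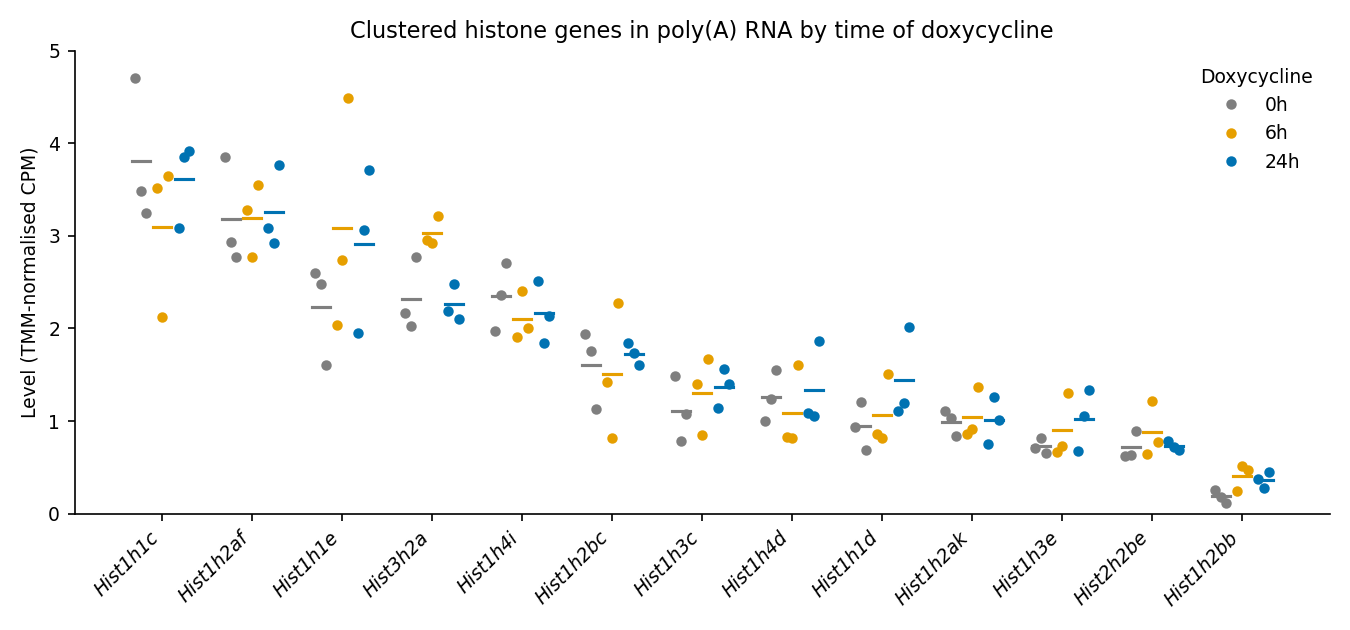
Level in TMM-normalised CPM (y axis) of the 13 named histone genes (x axis) in each RNA library, with points for the 3 replicates and a line for their mean at 0h, 6h and 24h. Hist3h2a is the gene whose 6h libraries (2.92 to 3.22 CPM) lie above all of its 0h and 24h libraries.

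Few members were called in any comparison. Of 39 tested members, 2 were called for 6h over 0h (both higher), against 39.0% of all 13785 tested genes, 20.8% being higher. For 24h over 0h 0 of 39 were called, against 7.04% of all genes, 4.17% being higher. An unadjusted p under 0.05 in edgeR was found for 4 members (Hist1h2ah, Hist1h3a, Hist1h1d and Hist1h2bb). DESeq2 gave an adjusted p for only 1 of the 39 members in this comparison and did not call it, so it could not have called the others. For 24h over 6h 1 was called (lower), against 36.1% of all genes, 18.8% being lower. Members are low, and among the 3475 tested genes with a mean in their range (0.229 to 3.51 CPM) 10.7% were called for 6h over 0h, 0.777% for 24h over 0h and 10.4% for 24h over 6h. The median SE of a log2 change was 0.35 for members at 6h over 0h, 0.28 for genes in their range and 0.053 for all genes, so changes of the size of the median member were not detectable at this depth. In these bulk libraries the share of cells in S phase and the histone RNA per cell cannot be told apart.

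Most tested members had a positive log2 change at the later time. The count was 25 of 39 for 6h over 0h, 33 of 39 for 24h over 0h and 31 of 39 for 24h over 6h. The median over members was 0.15, 0.27 and 0.21 in these comparisons, beside medians of 0.0067, -0.0017 and 0.0013 over all tested genes. Leaving out 1 library moved these medians between -0.13 and 0.29, between 0.15 and 0.42 and between 0.064 and 0.52, and the 6h over 0h median was -0.13 when 6h replicate 3 was left out and was -0.00034 when 0h replicate 3 was. Of 9 H3 genes, 9 were positive for 24h over 0h (0.19 to 0.93, none called), and 7 were without the 3 libraries highest in the 7SK RNA Rn7sk (-0.10 to 0.55). Of 8 H4 genes, 6 were negative for 6h over 0h (median -0.20, none called), and 6 were without those libraries. The 5 tested linker histone genes had a median of 0.39 for 6h over 0h and 0.56 for 24h over 0h, and of -0.058 and 0.026 without those libraries. Differences between the classes were not tested.

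**Figure D2:**
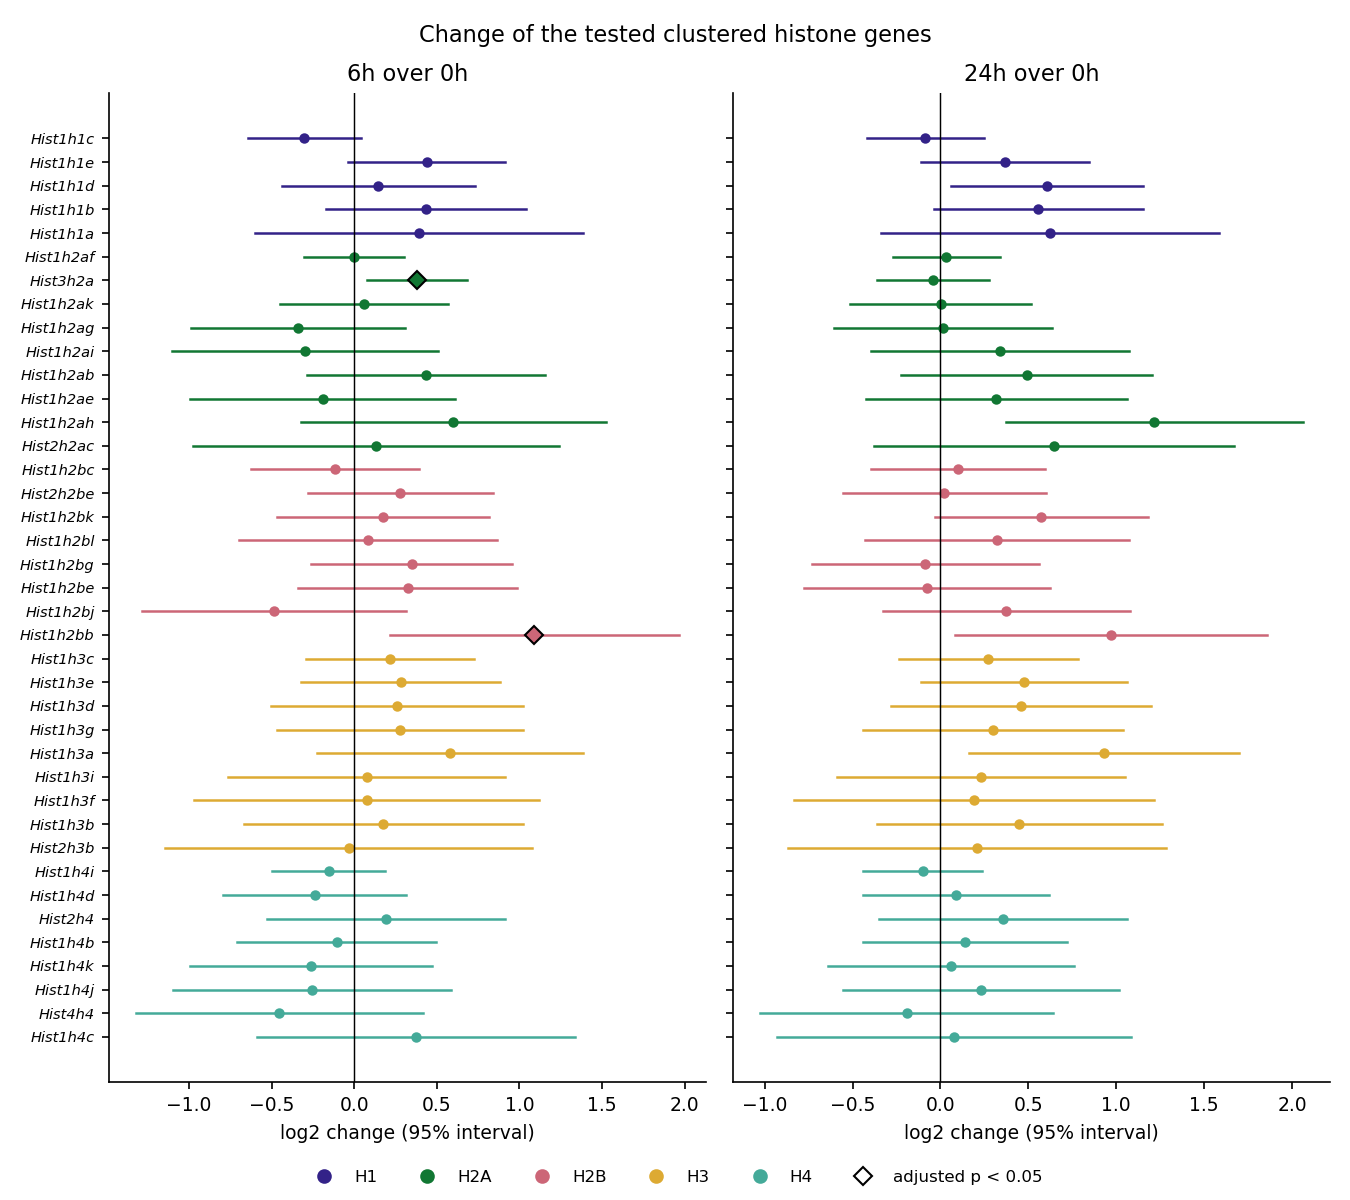
Log2 change with its 95% interval (x axis) of each of the 39 tested histone genes (y axis, coloured by histone class) for 6h over 0h on the left and 24h over 0h on the right, diamonds marking an adjusted p under 0.05 in edgeR. Hist3h2a (0.38) and Hist1h2bb (1.09) are marked at 6h and no gene is marked at 24h.

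The summed level of all members was 37.0, 34.4 and 30.8 CPM at 0h, 33.4, 29.9 and 46.0 CPM at 6h, and 33.3, 40.0 and 45.1 CPM at 24h. The means were 34.0 ± 3.1 CPM at 0h, 36.4 ± 8.5 CPM at 6h and 39.4 ± 5.9 CPM at 24h (SD, n = 3 each), and the times overlapped. Replicate 3 of 6h and replicates 2 and 3 of 24h stood above all 0h libraries. The same libraries were highest in Rn7sk, the 7SK RNA, which RNA polymerase III makes without a poly(A) tail: it had 7.84, 7.45 and 7.50 CPM at 0h, 8.11, 7.12 and 13.5 CPM at 6h, and 10.6, 18.5 and 18.0 CPM at 24h. Rmrp, another RNA of that kind, had 0.627 to 0.863 CPM at 0h, 0.517 to 1.14 CPM at 6h and 1.00 to 1.63 CPM at 24h. Without those 3 libraries, which were chosen after seeing the data and leave 1 library at 24h that is assumed to vary like the others, 15 of 39 members were positive for 6h over 0h (median -0.13), 19 of 39 for 24h over 0h (median -0.0084) and 24 of 39 for 24h over 6h (median 0.084), and none was called in any comparison. These 3 libraries also had the highest summed histone level, so leaving them out lowers the members' values at 6h and 24h by construction, and these counts show only how far the signs rest on them. The part of non-polyadenylated RNA in these libraries was not tested.

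**Figure D3:**
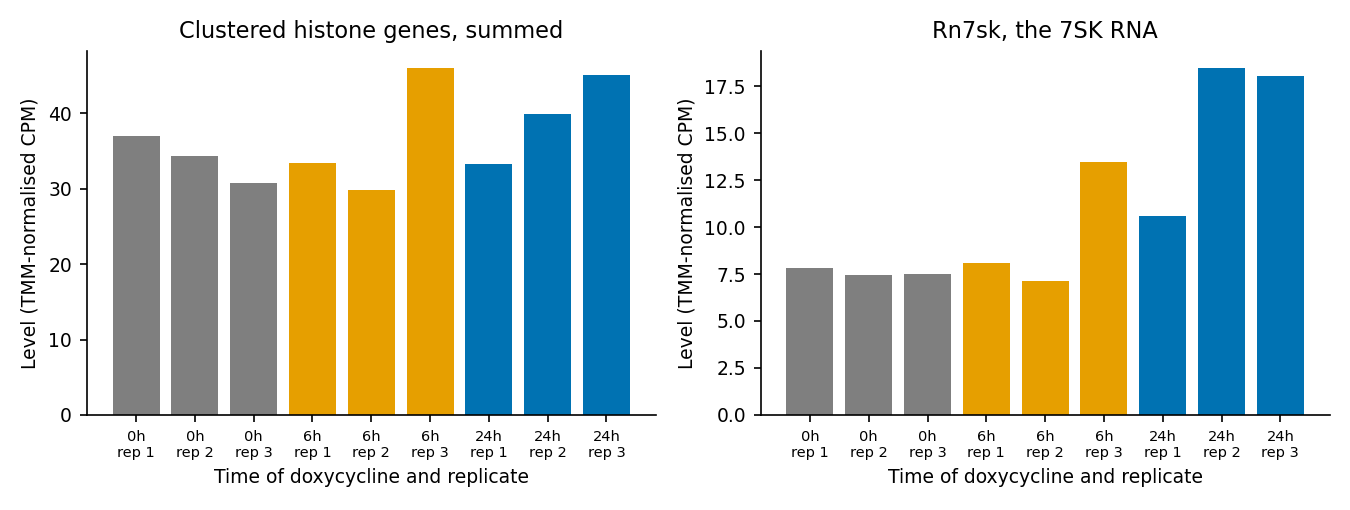
Summed level of the 68 counted histone genes (left) and level of Rn7sk (right) in TMM-normalised CPM (y axis) in each of the 9 RNA libraries (x axis, by time of doxycycline and replicate). Replicate 3 of 6h (46.0 and 13.5 CPM) and replicates 2 and 3 of 24h stand high in both.

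Genes that make and process histone mRNA were taken from a list written with earlier results of these data known. Slbp averaged 85.7 ± 3.0 CPM at 0h, 87.4 ± 1.3 CPM at 6h and 86.5 ± 1.5 CPM at 24h (SD, n = 3 each), and did not pass the test in any comparison. Its log2 change for 6h over 0h was 0.029, with a 95% interval of -0.035 to 0.093. Npat averaged 128.1 ± 2.9 CPM at 0h, 130.1 ± 1.9 CPM at 6h and 125.2 ± 0.44 CPM at 24h, and Lsm11 25.4 ± 2.3, 26.7 ± 1.5 and 25.0 ± 0.92 CPM at these times, neither passing the test in any comparison. Of 40 tested genes for histone transcription and 3' end processing, 12 rose and 4 fell for 6h over 0h, 5 rose and 1 fell for 24h over 0h, and 4 rose and 7 fell for 24h over 6h. Together 16, 6 and 11 of the 40 were called, beside 39.0%, 7.04% and 36.1% of all genes. Among the smallest p values were those of Fip1l1, a subunit of the general cleavage and polyadenylation complex (log2 change 0.21 ± 0.026 for 6h over 0h, adjusted p = 1.21e-07, and -0.24 ± 0.026 for 24h over 6h, adjusted p = 1.99e-08), and of genes for the small Lsm proteins of mRNA decay and splicing. Lsm3 had 21.1, 22.2 and 26.7 CPM at 0h, 30.5, 29.7 and 31.6 CPM at 6h and 29.8, 31.1 and 31.3 CPM at 24h. It rose by 0.39 ± 0.060 on the log2 scale for 6h over 0h (adjusted p = 5.49e-06) and by 0.40 ± 0.060 for 24h over 0h (adjusted p = 4.88e-05), with no overlap in either comparison.

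S phase genes moved in both directions. Of 35 tested, 10 rose and 7 fell for 6h over 0h, 5 rose and 0 fell for 24h over 0h, and 9 rose and 4 fell for 24h over 6h. Together 17, 5 and 13 of the 35 were called, beside 39.0%, 7.04% and 36.1% of all tested genes. Rrm2, a ribonucleotide reductase subunit, rose by 0.20 ± 0.025 on the log2 scale for 6h over 0h (adjusted p = 1.70e-07) and fell by 0.19 ± 0.025 for 24h over 6h (adjusted p = 6.34e-07). Tk1, thymidine kinase, rose by 0.14 ± 0.034 for 24h over 0h (adjusted p = 0.00944). Without the 3 libraries highest in Rn7sk, 1 of 35 was called for 24h over 0h and 7 for 24h over 6h, and the count for 24h over 0h was 3 without 0h replicate 1 and 2 without 0h replicate 2 or 24h replicate 2 or 3.

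Replication-independent histone genes, which lie outside the clusters and give polyadenylated mRNAs, were also followed. Of 12 tested, 3 rose and 4 fell for 6h over 0h, 3 rose and 1 fell for 24h over 0h, and 8 rose and 1 fell for 24h over 6h, or 7, 4 and 9 of 12 in all, beside 39.0%, 7.04% and 36.1% of all tested genes, among them the induced H2afy2, and H2afy3. H2afy3 had 0.0298 to 0.121 CPM at 0h, 2.13 to 2.39 CPM at 6h and 4.27 to 5.52 CPM at 24h, and whether its reads come from the transgene was not tested. H1f0, the H1.0 linker histone of slowly dividing cells, had 185, 180.3 and 181 CPM at 0h, 143, 141 and 143 CPM at 6h and 171, 176 and 177 CPM at 24h, with no overlap between the times. It fell by 0.36 ± 0.026 on the log2 scale for 6h over 0h (adjusted p = 1.12e-11) and rose by 0.29 ± 0.027 for 24h over 6h (adjusted p = 7.11e-10). H2afv, an H2A.Z gene, fell by 0.36 ± 0.039 for 6h over 0h (adjusted p = 1.66e-08), and H1fx, a linker histone gene, by 0.77 ± 0.11 (adjusted p = 2.19e-06). Both H3.3 genes were called in opposite directions at 6h over 0h, H3f3a with -0.12 ± 0.037 (adjusted p = 0.00972) and H3f3b with 0.069 ± 0.022 (adjusted p = 0.0155). H3f3b averaged 639 ± 7.7 CPM at 6h, against 609 ± 7.8 CPM at 0h (SD, n = 3 each), above the summed level of all clustered genes in every library. Poly(A) selection keeps its mRNA but not most mRNA of the clustered genes, so this does not compare their levels in the cell.

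In chromatin, few clustered genes lay inside macroH2A2 regions, near the share of other short genes. Regions are the authors' broad calls, and a gene was counted as covered when 50% or more of its bases lay inside one. Covered members of 70 numbered 0 at 0h, 1 at 6h, 0 at 24h and 0 at 5d, beside 3.38%, 11.3%, 8.81% and 6.68% of 21564 other protein-coding genes. The members are short, and of 1380 other protein-coding genes of 1 kb or less 2.54%, 3.84%, 5.29% and 5.65% were covered at those times. With 70 members, these low background shares allow few covered genes at any time, so the counts of the members lie near those of short genes. The 1 covered gene at 6h was Hist1h4h, an H4 gene at chr13:23531044-23531478 whose whole length lay in a region of 14400 bases. It was 6243 bases from the nearest region at 24h and at 5d. Hist1h1a (28.5%) and the long annotated Hist1h2be (16.6%) were partly inside regions at 6h. With wider windows and gaps at 5d, 1 member was covered (Hist3h2ba), beside 14.0% of other protein-coding genes and 9.93% of those of 1 kb or less, and 1 of 57 starts in H2A.Z regions lay in a region, beside 9.53% of other such starts and 15.0% of all other starts. With 1 library per condition, no ChIP difference has a replicate check or a test.

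H2A.Z regions in primary fibroblasts covered most members. Of 70 members 60 were covered, beside 4.49% of the other protein-coding genes and 5.87% of those of 1 kb or less, and 67 were touched. All 6 H1 genes, 18 of 20 H2A, 12 of 19 H2B, 12 of 12 H3 and 12 of 13 H4 genes were covered. Hist1h4d, Hist1h2ba and Hist1h2aa were not touched and lay 1831, 1524 and 2236 bases from a region, while the other 7 uncovered members were touched in part and are annotated over 2667 to 37455 bases, 6 of them H2B genes and 1 the H2A pseudogene Hist1h2al. By start site the difference was smaller, with 57 of 62 members (91.9%) inside an H2A.Z region against 56.9% of 17212 other protein-coding genes. MacroH2A2 regions held 0 of the 62 starts at 0h, 1 at 6h, 0 at 24h and 0 at 5d, beside 3.20%, 6.62%, 7.15% and 5.11% of the other genes. Of the 57 starts in H2A.Z regions, 1 lay in a macroH2A2 region at 6h and 0 at 0h, 24h or 5d, beside 4.92% at 6h, 1.37% at 0h, 2.86% at 24h and 1.50% at 5d of 9802 other genes whose start lay in an H2A.Z region. The low macroH2A2 coverage of member starts is thus near that of other starts with H2A.Z. The H2A.Z cells differ from the iDFs in genotype, sex and immortalization, which cannot be told apart here.

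**Figure D4:**
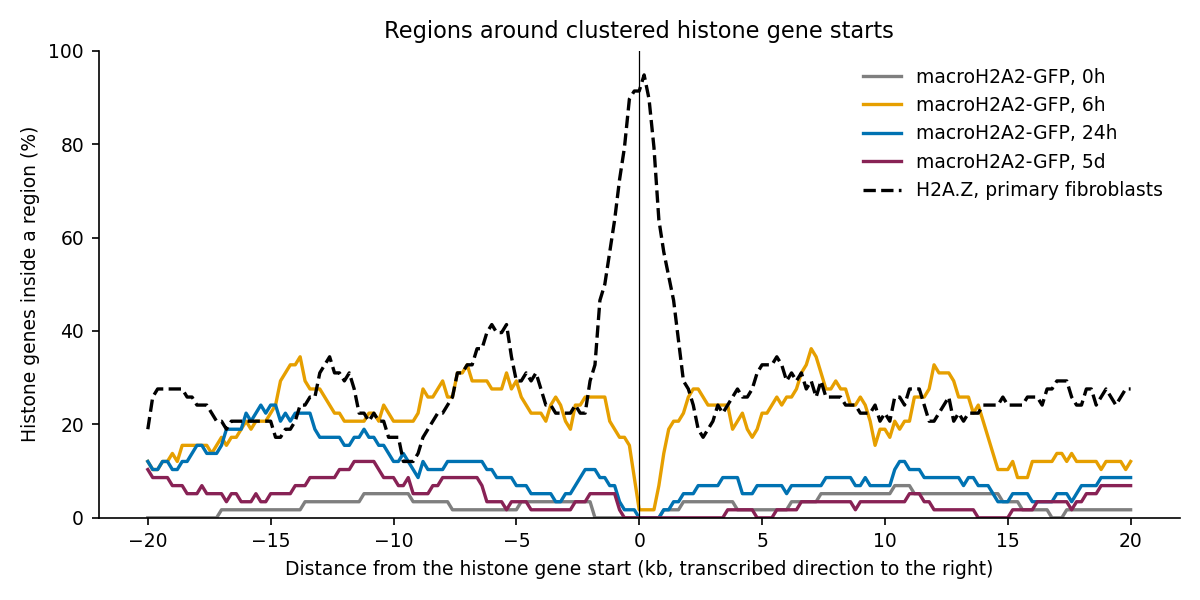
Percent of the 58 histone genes of 1 kb or less with a known strand that lay inside a region (y axis) at each distance from the gene start in kb (x axis), for macroH2A2-GFP at 0h, 6h, 24h and 5d and for H2A.Z. At the start itself 91.4% lay in H2A.Z regions and 1.72% in macroH2A2 regions at 6h, beside 19.0% at 1 kb before the start and 29.3% at 5 kb before it. Other genes were not profiled.

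The distance of macroH2A2 regions from members was near that of other starts in H2A.Z regions at 6h and 24h. The median distance from a member's start to the nearest region was 75500.5 bases at 0h, 2654 bases at 6h, 11162.5 bases at 24h and 22617.5 bases at 5d (62 starts). For 17212 other protein-coding genes it was 46966.5 bases at 0h, 7534.5 bases at 6h, 15851.5 bases at 24h and 20446.5 bases at 5d. Among starts in H2A.Z regions it was 74003 bases at 0h, 2506 bases at 6h, 10617 bases at 24h and 21761 bases at 5d for the 57 members, beside 35345, 3048, 10263.5 and 15647.5 bases at those times for the 9802 other genes. Most members lie close together in clusters, so here and below neighbouring starts often share a nearest region and are not separate observations. Of the 58 members of 1 kb or less with a known strand, 11 had a region 1 kb before the start at 6h, 4 at 24h and 3 at 5d, and 17, 4 and 2 had one 5 kb before it. The same counts were not made for other genes, so whether this profile is particular to members was not tested. Named genes differed, with the distance here taken from the nearer edge of the whole gene and not from its start. Hist1h1e lay 1042 bases from a region at 6h and 842 bases at both 24h and 5d. Hist1h1c lay 206 bases away at 6h, 806 bases at 24h and 16806 bases at 5d. Hist1h2bb lay 1377 bases from a region at 6h, 8733 bases at 24h and 24733 bases at 5d.

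The Hist1 cluster on chromosome 13 holds 55 of its 56 genes between 21715711 and 23934913, and Hist1h2al, a transcribed pseudogene, lies 27.3 Mb away. A gap without histone genes parts it into a sub-cluster A of 24 genes (chr13:21715711-22043658) and a sub-cluster B of 31 genes (chr13:23531044-23934913). Regions covered 4.64% of sub-cluster A at 0h, 19.2% at 6h, 18.2% at 24h and 13.2% at 5d, beside 4.22%, 11.2%, 11.8% and 10.8% of the chromosome. In sub-cluster B they covered 1.39% at 0h, 10.9% at 6h, 5.94% at 24h and 7.28% at 5d. At 24h the regions covered 0% of the bases of members in both sub-clusters, and 20.2% of the bases between members in sub-cluster A and 7.01% in sub-cluster B. At 6h they covered 0% of member bases against 21.2% of the bases between in sub-cluster A, but 11.1% against 10.9% in sub-cluster B. The 11.1% rests mostly on Hist1h2be, which is annotated over 37455 bases and was 16.6% covered. Hist1h4h and Hist1h1a were the only other members touched. With GSK126 at 6h the shares were 12.6% against 24.4% in sub-cluster A and 8.15% against 14.5% in sub-cluster B. The 12.6% came from Hist1h2bp alone, which is annotated over 14079 bases and was 28.4% covered. Of macroH2A2 bases in sub-cluster B, 0% at 0h, 22.1% at 6h, 2.50% at 24h and 11.6% at 5d lay in H2A.Z regions, beside 12.2%, 13.8%, 12.04% and 10.9% over the chromosome, with no steady direction. In sub-cluster A 21.1% did at 0h, 38.5% at 6h, 37.8% at 24h and 34.3% at 5d. H2A.Z regions themselves covered 26.7% of sub-cluster A and 18.5% of sub-cluster B, beside 9.01% of the chromosome. The overlaps of the sub-clusters and of the chromosome therefore start from unlike H2A.Z shares, and an excess over those shares was not tested. Of the 50 other protein-coding genes of the Hist1 interval, many of them vomeronasal receptors of the gap, 0 were covered in each of the 7 macroH2A2 libraries. The share of all protein-coding genes other than members was 3.38% to 12.5% in those libraries, and 2.54% to 6.23% for those of 1 kb or less. The lower of these shares allow few covered genes among 50, and the 50 were not matched by length. Regions touched 1 to 5 of the 50 in each library. With the wider windows at 5d, 2 of the 50 were covered, beside 14.0% of other protein-coding genes.

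The smaller clusters held few regions. The Hist2 cluster of 10 genes (chr3:96219885-96270192) had 0% coverage at 0h, 15.5% at 6h, 13.9% at 24h and 0% at 5d, from 1 region each at 6h and 24h, which did not overlap. Chromosome 3 as a whole was covered to 3.641%, 10.96%, 10.15% and 9.831% at those times. The Hist3 cluster of 3 genes (chr11:58948911-58955192) had 47.8% at 0h, 28.6% at 6h, 50.9% at 24h and 0% at 5d, from 1 region between Hist3h2ba and the pair of Hist3h2bb-ps and Hist3h2a at each of the 3 earlier times. That interval is 6.28 kb long, so 1 region sets its value, and it was present before induction. Chromosome 11 as a whole was covered to 9.655% at 0h, 19.87% at 6h, 18.95% at 24h and 17.35% at 5d. Hist4h4, the only Hist4 gene, was in no macroH2A2 region and wholly in an H2A.Z region.

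**Figure D5:**
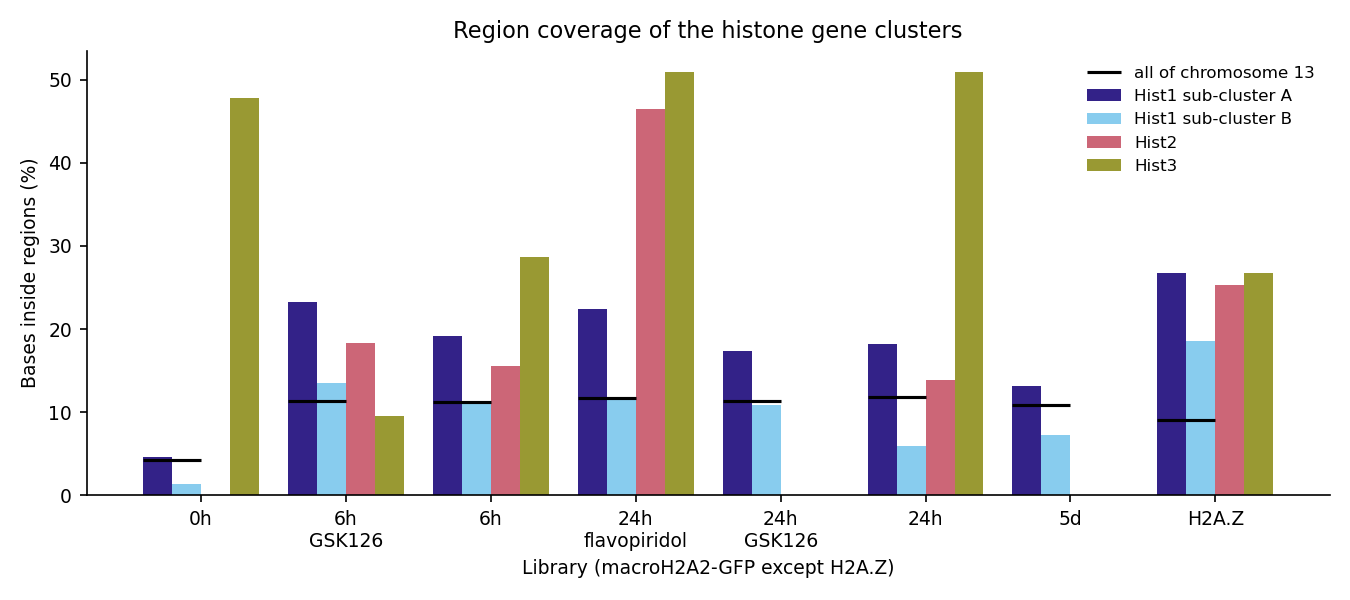
Percent of bases inside regions (y axis) for the Hist1 sub-clusters A and B, Hist2 and Hist3 in each library (x axis), with a black line for all of chromosome 13 over the bars of the Hist1 sub-clusters. Sub-cluster A lies above its chromosome in every library, and Hist2 is highest with flavopiridol (46.5%).

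With flavopiridol at 24h, 1 of 70 members was covered, against 0 at 24h without it, beside 11.9% of other protein-coding genes with flavopiridol (6.23% of those of 1 kb or less). It was Hist2h2be, an H2B gene at chr3:96221072-96223738, with 57.7% of its bases in a region of 4000 bases, against 0% at 24h without flavopiridol. The Hist2 cluster was covered to 46.5% by 3 regions with flavopiridol, against 13.9% by 1 region without it. Sub-cluster A was covered to 22.4% with flavopiridol against 18.2% without it, and sub-cluster B to 11.5% against 5.94%. The median distance from a member's start to a region was 4687 bases with flavopiridol, against 11162.5 bases at 24h without it, beside 10248 against 15851.5 bases for other starts. Among starts in H2A.Z regions it was 4674 against 10617 bases for members, beside 3823.5 against 10263.5 bases for other genes. No member start lay in a region with flavopiridol or at 24h without it, beside 6.90% and 7.15% of other starts (2.87% and 2.86% of those in H2A.Z regions). Chromosome 13 as a whole was covered to 11.7% with flavopiridol and 11.8% without it, and chromosome 3 to 10.92% and 10.15%.

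With GSK126 at 6h, 3 members were covered (Hist1h4d, Hist1h4c and Hist1h3b), against 1 at 6h without it, beside 12.5% of other protein-coding genes with GSK126 (3.41% of those of 1 kb or less). Each was covered over its whole length, against 0% at 6h without GSK126, where they lay 167, 342 and 360 bases from a region. In all, 7 members were touched with GSK126 at 6h, against 3 without it. That library held 79959 regions of a median length of 3400 bases, against 62192 of 4400 bases without GSK126, with 392 Mb against 383 Mb covered in all, and the part of region calling in these counts was not tested. At the start, 3 of 62 members lay in a region with GSK126 at 6h and 1 without it, beside 6.39% and 6.62% of other starts, and 2 and 1 of the 57 in H2A.Z regions, beside 4.74% and 4.92%. At 24h 0 starts did with GSK126, beside 4.96% of other starts (1.94% of those in H2A.Z regions). At 24h 0 members were covered with GSK126 (5.99% of other protein-coding genes, 4.49% of those of 1 kb or less) and 0 without it. Sub-cluster A was covered to 23.2% with GSK126 at 6h against 19.2% without it, and to 17.3% with GSK126 at 24h against 18.2% without it. Sub-cluster B was covered to 13.5% against 10.9% at 6h, and to 10.9% against 5.94% at 24h. Chromosome 13 was covered to 11.4% with GSK126 at both times, against 11.2% at 6h and 11.8% at 24h without it. The Hist2 and Hist3 clusters had 0% with GSK126 at 24h, against 13.9% and 50.9% without it, each resting on 1 region.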

How the data were processed

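Members were all genes with the 4 older symbol prefixes, and members and companion lists were chosen with earlier results of these data known. RNA values are raw counts per gene as deposited, made by STAR 2.5.2b per the submitters' processing notes, of 80-base single-end reads. The column of sense counts (column 4) was used, which held 96.6% or more of stranded counts. All 9 libraries were fitted in edgeR 4.0.16 under R 4.3.3 (filterByExpr, TMM, glmQLFit, glmQLFTest, time only; 13785 genes), with Benjamini-Hochberg adjustment within each contrast over all tested genes. The fit was tested on simulated data. Replicate numbers were not treated as pairs, since over all tested genes no correlation of same-numbered libraries was over 0.1. This check does not settle how the samples were collected. The annotation behind the counts is not given in the sources used here.

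Region lists were deposited by the authors with a whole-number score per region. No label gives the scale of that score. The other column, a row index, was left aside. They were called with SICER 1.1 after Bowtie 1.1.2 on GRCm38, per the submitters' processing notes, with windows of 200 bases and gaps of 800 bases (also 1000 and 4000 at 5d). The read depth behind them is unknown. Python 3.11.15 (pandas 2.3.3, numpy 2.4.6) computed coverage on RefSeq GRCm38.p6 positions, and matplotlib 3.10.9 drew the figures. The input library was not used here.

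Named genes were the 12 members with the highest mean CPM, every member called, the members with the highest and lowest coverage, up to 4 called genes with the smallest p of each companion list, and Slbp, Npat, Lsm11, H3f3a and H3f3b. Rn7sk and Rmrp were chosen after their values were seen, as were Hist1h2ah, Hist1h3a and H1fx. The values of 1 gene that this rule names are not reported here. Companion lists had 43 genes for histone transcription and processing, 35 S phase genes and 18 replication-independent histone genes. Alternatives were other scaling, no filter, unstranded counts, DESeq2 1.42.0, only the 6 libraries of a contrast, a replicate block, leaving out libraries, and other coverage limits.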

Additional observations from a re-analysis of the deposited data

Results flagged for a closer look

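The following differ between 6h and 24h of induction by a test of the difference itself, which is the 24h over 6h contrast of the edgeR fit (3 replicates per time). Hist3h2a had a log2 change of 0.38 at 6h and -0.043 at 24h over 0h, a difference of -0.42 (adjusted p = 0.0267), with all 3 libraries at 24h below all 3 at 6h. H3f3a had -0.12 at 6h and 0.048 at 24h, a difference of 0.17 (adjusted p = 0.000565), with no overlap between 24h and 6h. H3f3b had 0.069 at 6h and -0.0076 at 24h, a difference of -0.076 (adjusted p = 0.00845), again with no overlap. Both contrasts share the 0h libraries. Groups of 3 libraries were too small for a check of single outlying samples.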

How the results depend on the processing

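Counts of clustered genes called for 6h over 0h (2) became 1 without a filter on low counts, 1 with only the 6 libraries of the contrast, 0 in DESeq2 and 0 without the 3 libraries highest in Rn7sk; those for 24h over 6h (1) became 0 in DESeq2 and 0 without the 3 libraries. DESeq2 gave an adjusted p for 28, 1 and 22 of the 39 members in the 3 comparisons. Leaving out 1 library gave 0 to 2 calls in each of the 3 comparisons and 2 to 6 S phase calls for 24h over 0h (5). Those 3 libraries also had the highest summed histone level, so their removal lowers members at 6h and 24h by construction. Without them S phase calls were 1 for 24h over 0h and 7 for 24h over 6h, and the summed level at 24h was 33.3 CPM. Unstranded counts gave summed levels of 27.9 CPM at 0h and 32.5 CPM at 24h. The cause was not tested.

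Replicate numbers were not treated as pairs, with correlations of same-numbered libraries of -0.018 to 0.039 over all tested genes. Over the tested members they ran from -0.47 to 0.15. With a replicate block 1 clustered gene (Hist3h2a) was called for 6h over 0h, 0 for 24h over 0h and 1 for 24h over 6h, and Hist1h2ak had -0.00082 for 24h over 0h.

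Covered members became 3 at 6h with any overlap and 3 with genes widened by 1 kb, 1 at 24h when widened, 1 at 5d with the wider windows, 0 with flavopiridol at an 80% limit, and 7 (any overlap) and 5 (widened) at 6h with GSK126. Against the whole Hist1 interval, sub-cluster A had 4.64%, 19.2%, 18.2% and 13.2% at 0h, 6h, 24h and 5d, 22.4% with flavopiridol, 23.2% and 17.3% with GSK126 at 6h and 24h, and 26.7% in H2A.Z; sub-cluster B had 7.28% at 5d and 10.9% with GSK126 at 24h. Wider windows at 5d gave 10.0% for Hist1 and 65.1% for Hist3, and regions at or above the median score gave 0% for Hist2 at 24h.

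Of 602 checks of the 13 named genes under 16 alternatives 521 kept direction and call, 23 lost a call, 3 gained one and 55 changed sign, none of these 55 in a called comparison. Without the 3 libraries the log2 change was -0.17 for Hist1h1d, -0.17 for Hist1h2ak and -0.057 for Hist1h3e for 6h over 0h. For 24h over 0h it was -0.049 for Hist1h2af, -0.19 for Hist1h1e, 0.10 for Hist1h4i, -0.22 for Hist1h4d, -0.39 for Hist1h2ak and -0.10 for Hist1h3e, and for 24h over 6h -0.047 for Hist1h3e and 0.024 for Hist1h2bb. With RLE scaling Hist1h2ak had -0.0012 for 24h over 0h. Leaving out 1 library, log2 changes for 6h over 0h ran from -0.092 to 0.16 for Hist1h2af, -0.51 to 0.17 for Hist1h2bc, -0.17 to 0.36 for Hist1h1d, -0.17 to 0.19 for Hist1h2ak, -0.064 to 0.47 for Hist1h3e and -0.033 to 0.48 for Hist2h2be. For 24h over 0h they ran from -0.19 to 0.10 for Hist1h1c, -0.082 to 0.20 for Hist1h2af, -0.13 to 0.10 for Hist3h2a, -0.23 to 0.015 for Hist1h4i, -0.10 to 0.26 for Hist1h2bc, -0.23 to 0.26 for Hist1h4d, -0.17 to 0.18 for Hist1h2ak and -0.069 to 0.21 for Hist2h2be. For 24h over 6h they ran from -0.082 to 0.11 for Hist1h2af, -0.32 to 0.29 for Hist1h1e, -0.075 to 0.16 for Hist1h4i, -0.071 to 0.61 for Hist1h2bc, -0.17 to 0.26 for Hist1h3c, -0.23 to 0.18 for Hist1h2ak, -0.059 to 0.54 for Hist1h3e, -0.46 to 0.055 for Hist2h2be and -0.42 to 0.10 for Hist1h2bb. The cause was not tested.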
